A study of Mus musculus with 20 samples.

Results

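The genes described here are 10 genes of the liver X receptor (LXR) response and of fatty acid desaturation, Nr1h3, Srebf1, Abca1, Abcg1, Mylip, Lpcat3, Acaca, Fasn, Scd1 and Scd2. They were chosen by symbol among 24062 genes, and all 10 had a value in every mouse and were high enough to be tested at both ages. Microglial RNA was sequenced from 20 male mice on the B6D2F1/J background, each sample being the whole brain of 1 mouse, from which cells had been drawn with magnetic beads (CD11b in the study's methods, IBA1 in the sample labels). The mThy1-Asyn mice (genotype label HEM) overexpressed human wild-type α-synuclein from a transgene with the murine Thy-1 promoter inserted on the X chromosome, a promoter known for its expression in neurons. They numbered 6 mice at 7 months and 5 mice at 10 months, and were compared with 4 wild-type littermates at 7 months and 5 at 10 months, to learn how microglia differ between genotypes as the motor deficits develop. Mice of an age were processed together and normalized separately from the other age, so a difference in level between ages cannot be told apart from processing.

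LXRs are nuclear receptors that bind oxysterols and desmosterol, pair with retinoid X receptors and switch on genes that rid a cell of cholesterol. Their targets include the exporters ABCA1 and ABCG1, the E3 ubiquitin ligase MYLIP, the lysophospholipid acyltransferase LPCAT3 and the regulator SREBF1, which drives fatty acid synthesis. In macrophages and microglia that clear myelin and dying cells, this program handles the cholesterol taken up, and stearoyl-CoA desaturases turn saturated into monounsaturated fatty acids for membranes and lipid stores.

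Between 33404096 and 77806399 reads per mouse were counted on genes. Thy1, the gene whose promoter the transgene carries, had 392.5 to 1298 normalized counts in mThy1-Asyn mice against 17.7 to 47.6 in wild-type mice at 7 months, and 1117 to 1741 against 9.41 to 32.4 at 10 months, so every mouse matched its label. All 9 microglia markers (among them P2ry12, Tmem119 and Cx3cr1) were present in every mouse and their sum made up 3.52% to 3.89% of all normalized counts in the 4 group means. In bulk samples, fewer cells of a type and less RNA per cell cannot be told apart. Other cells were present too, and their markers moved with genotype. At 7 months the summed neuron markers (10 of 10 found, led by Meg3) ranged from 437 to 1611 in mThy1-Asyn mice and from 2575 to 5381 in wild-type mice, and the 8 oligodendrocyte markers (among them Mbp) from 7857 to 10200.0 and from 12752 to 18215. The 6 endothelial markers also kept the genotypes apart at 7 months, with sums of 2549 to 4503 in mThy1-Asyn mice and 4986 to 5769 in wild-type mice, and 2 of the 6 were lower by the test. Of the 8 astrocyte markers 3 were lower and 1 higher by the test at that age, with a median log2 fold change of -0.93. Their sums, led by Slc1a3, overlapped at both ages. At 10 months the 6 neutrophil markers (led by S100a9) ranged from 70021 to 189748 in mThy1-Asyn mice and from 150747 to 377192 in wild-type mice, and the 6 border macrophage markers (led by Mrc1) from 18322 to 23794 and from 25007 to 34609. The 5 lymphocyte markers, at a low level, also kept the genotypes apart at 10 months. Their sums were 83.8 to 174 in mThy1-Asyn mice and 281 to 585 in wild-type mice, and 2 of 3 tested were lower by the test. No neuron, astrocyte, endothelial, neutrophil or border macrophage marker was at 0 in all mice. The part of these cells in the results was not tested.

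**Figure D1:**
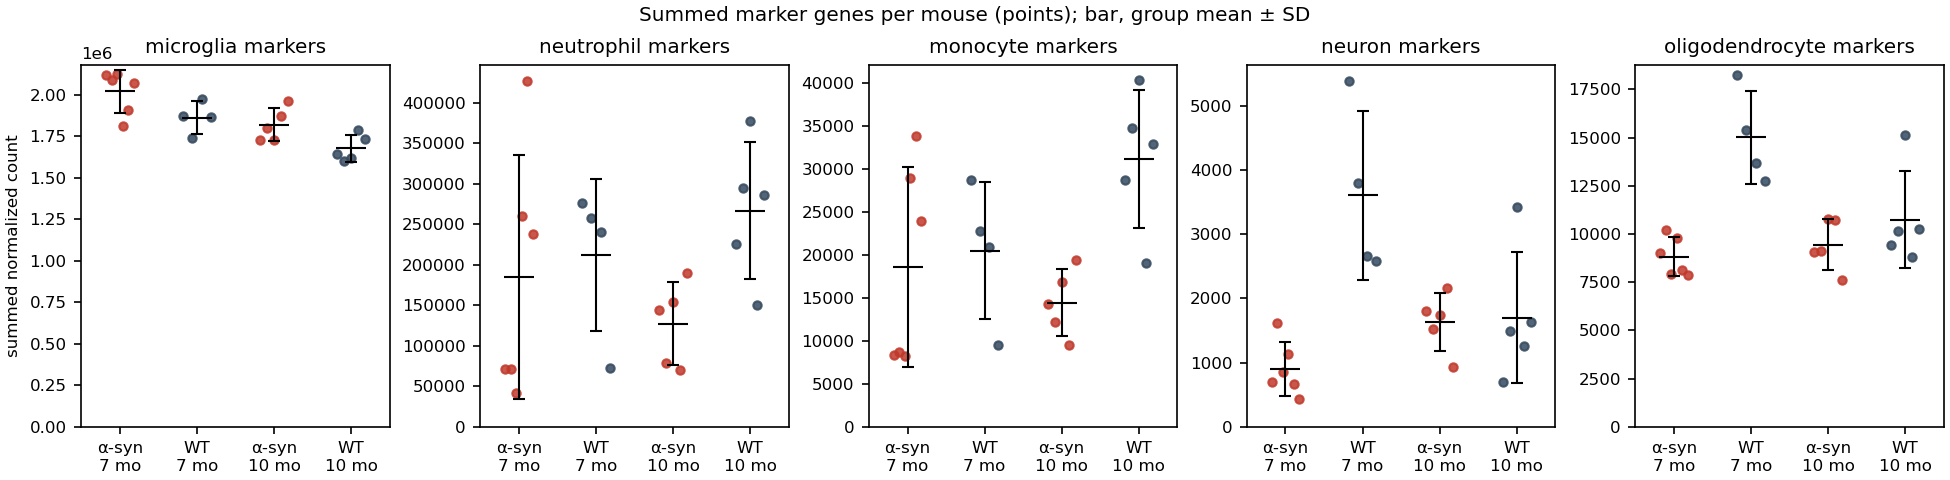
Summed normalized counts of cell type markers on the y axis, with a point for each mouse and a bar for the group mean ± SD, in mThy1-Asyn (red, α-syn) and wild-type (dark, WT) mice at 7 and 10 months. Neuron and oligodendrocyte markers separated the genotypes at 7 months, neutrophil and monocyte markers were lower on average in mThy1-Asyn mice at 10 months, and the lowest microglia sum of any mouse was 1603030.

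The sequence before the annotated start was printed for the 3 genes of the group whose start windows held the same repeat, because this is the kind of site that LXR pairs recognise. Start windows (250 bases before to 50 after a start) were in the RefSeq table on GRCm38.p6 for 7 of the 10 genes, and for Abcg1, Scd1 and Scd2 none was printed. Each line below gives the 250 bases before a start on the gene's own strand, with the repeat in capitals.
Abca1, chr4:53159896-53160145, minus strand: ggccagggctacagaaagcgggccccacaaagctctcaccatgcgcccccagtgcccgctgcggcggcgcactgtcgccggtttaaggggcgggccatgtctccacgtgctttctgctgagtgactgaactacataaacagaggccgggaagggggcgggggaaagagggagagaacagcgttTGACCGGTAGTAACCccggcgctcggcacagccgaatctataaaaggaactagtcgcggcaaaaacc
Srebf1, chr11:60210472-60210721, minus strand: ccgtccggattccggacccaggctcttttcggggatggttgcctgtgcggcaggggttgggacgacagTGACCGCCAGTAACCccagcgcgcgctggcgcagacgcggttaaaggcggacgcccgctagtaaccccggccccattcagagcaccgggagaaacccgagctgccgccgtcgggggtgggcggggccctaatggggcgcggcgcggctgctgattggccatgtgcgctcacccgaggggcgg
Fasn, chr11:120824548-120824797, minus strand: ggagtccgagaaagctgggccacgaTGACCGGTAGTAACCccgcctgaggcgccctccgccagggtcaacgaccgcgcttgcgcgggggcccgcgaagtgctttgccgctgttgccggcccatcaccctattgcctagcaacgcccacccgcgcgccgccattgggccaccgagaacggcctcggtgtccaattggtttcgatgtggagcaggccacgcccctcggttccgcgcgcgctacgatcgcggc
The capitals match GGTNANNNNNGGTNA (read on the opposite strand TNACCNNNNNTNACC), a relaxed form of the direct repeat of AGGTCA with 4 bases between the copies, to which LXR and its partner are known to bind. The Abca1 and Fasn windows lay upstream of the gene and over no annotated gene, and the Srebf1 window lay in an intron of Srebf1, before an internal start. The repeat spanned positions -67 to -53 from the start in Abca1, -182 to -168 in Srebf1 and -225 to -211 in Fasn. On either strand this pattern was found in 221 of 27025 genes with a window (0.818%). The exact repeat was found in none of the 7 genes' windows and in 4 of 27025 genes (0.0148%). A narrower pattern, GGTTACTNNCGGTCA, was written after these windows had been read, and it occurred in these 3 genes alone, so its count is a description. Its other-strand form is TGACCGNNAGTAACC, and it is contained in the first pattern. The sterol regulatory element pattern TCACNCCAC (other strand GTGGNGTGA) occurred in none of the 7 genes' windows and in 1.436% of all genes, which says only that these letters were not there. A match is a stretch of letters and not a measured binding site. As described below, Abca1 differed between genotypes at 10 months by the test, and Srebf1 and Fasn did not pass it.

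**Figure D2:**
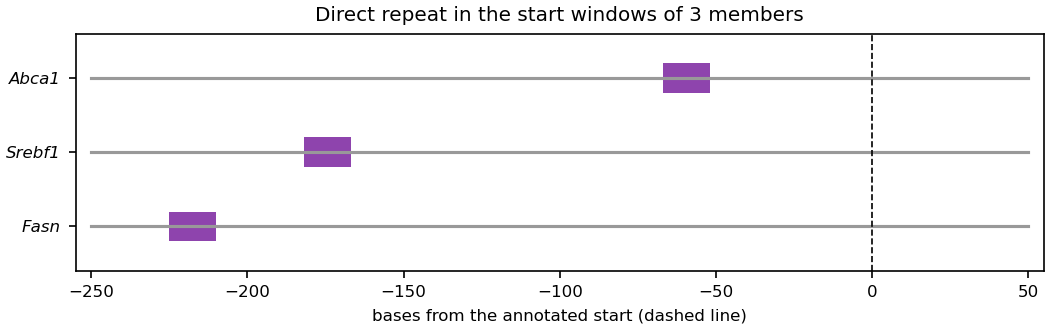
Position of the repeat (purple) in the start windows of Abca1, Srebf1 and Fasn, on an x axis of bases from the annotated start (dashed line at 0). The repeat lies closest to the start in Abca1, from -67 to -53.

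Levels are given first as normalized counts per kilobase of exon, the scale on which genes can be compared. Mylip was the highest in each of the 4 groups, from 4120.1 ± 207 (SD, n = 5) in mThy1-Asyn mice at 10 months to 4822 ± 503 (n = 6) in mThy1-Asyn mice at 7 months. Abca1, Scd2, Lpcat3 and Abcg1 followed, between 1030 ± 53.7 (Abcg1 in wild-type mice at 10 months, n = 5) and 3180.2 ± 701 (Abca1 in mThy1-Asyn mice at 7 months). Their order changed between groups. The ranges of Abca1 and Scd2 overlapped in all 4 groups, so these 2 neighbours did not differ beyond the spread. Srebf1 came next at 155 to 177 in the group means, and its range lay apart from the genes above and below it in every group. Fasn, Acaca and Scd1 had group means of 56.6 to 108. Among these, Scd1 ranked lowest in wild-type mice of both ages, and in mThy1-Asyn mice at 10 months it was highest, at 106 ± 12.6, with a range that overlapped that of Fasn. Nr1h3, which encodes LXRα, was lowest in every group, at 15.98 to 23.0, and its range overlapped with no other of these genes.

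**Figure D3:**
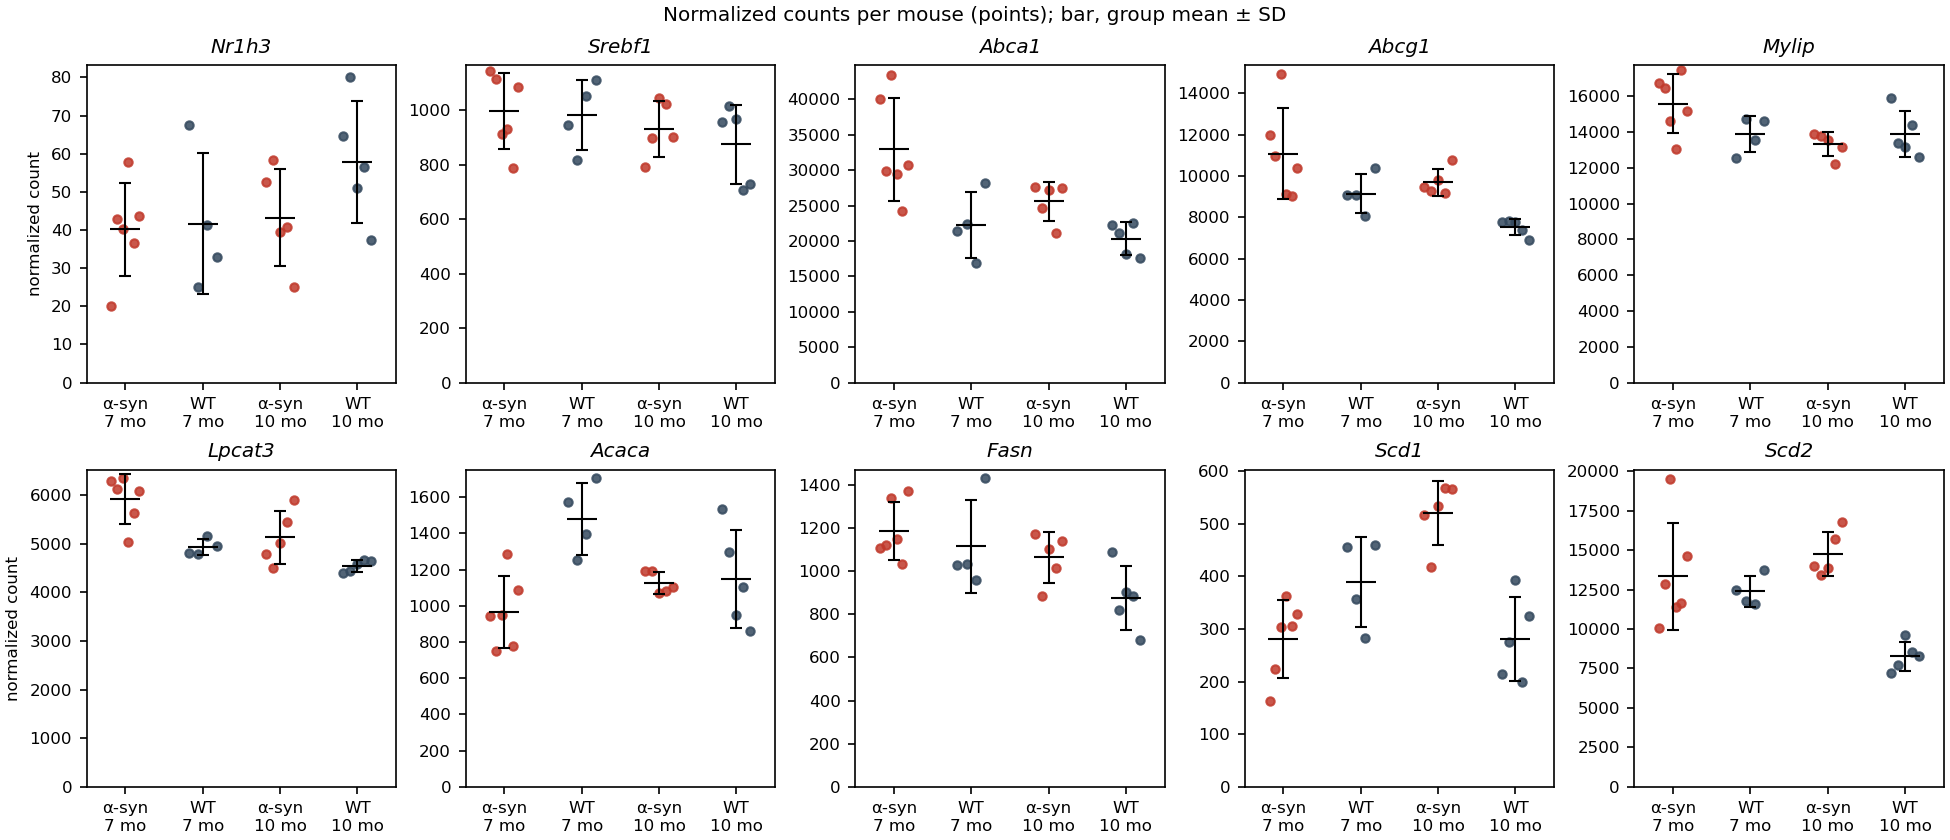
Normalized counts of the 10 genes on the y axis (each panel from 0, with its own scale), a point for each mouse and a bar for the group mean ± SD, by genotype and age. At 10 months the Scd2 values of mThy1-Asyn mice, 13406 to 16765, lie above all wild-type values, 7225 to 9628, and the same separation is seen for Scd1 and Abcg1.

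The genotypes were compared at each age by limma on log2(value + 1) of the normalized counts, a moderated linear model. Its p-values were Benjamini-Hochberg adjusted over all genes tested, with a cutoff of 0.05. Fold changes are mThy1-Asyn over wild-type. Where a gene is said to rise or fall at an age, mThy1-Asyn mice are set beside wild-type mice of that age. At 10 months 4 of the 10 genes passed the cutoff, Abca1, Abcg1, Scd1 and Scd2, all higher in mThy1-Asyn mice, where 3.88% of the 13627 genes tested were higher and 7.67% passed in either direction. At 7 months only Acaca passed, lower in mThy1-Asyn mice, where 4.93% of the 13887 genes tested passed, 2.70% lower and 2.23% higher. The genotype difference itself changed between the ages for Scd1 and Scd2, 2 of 10 genes, where 6.60% of 14030 genes did, 3.87% upward and 2.73% downward (the interaction, computed as the log2 fold change of 10 months less that of 7 months in a joint fit of 20 mice). The median log2 fold change of the 10 genes was 0.09 at 7 months, with 7 above 0, and 0.23 at 10 months, with 8 above 0. Over all genes tested the median was 0.0009 and -0.0026. Without any test, 3 of the 10 genes kept the genotypes wholly apart at 10 months, all higher in mThy1-Asyn mice, where 3.78% of all genes did so upward, 3.49% downward and 7.27% in sum. At 7 months the genotypes overlapped for each of the 10 genes, where 3.55% of all genes lay apart upward, 3.97% downward and 7.53% in sum.

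**Figure D4:**
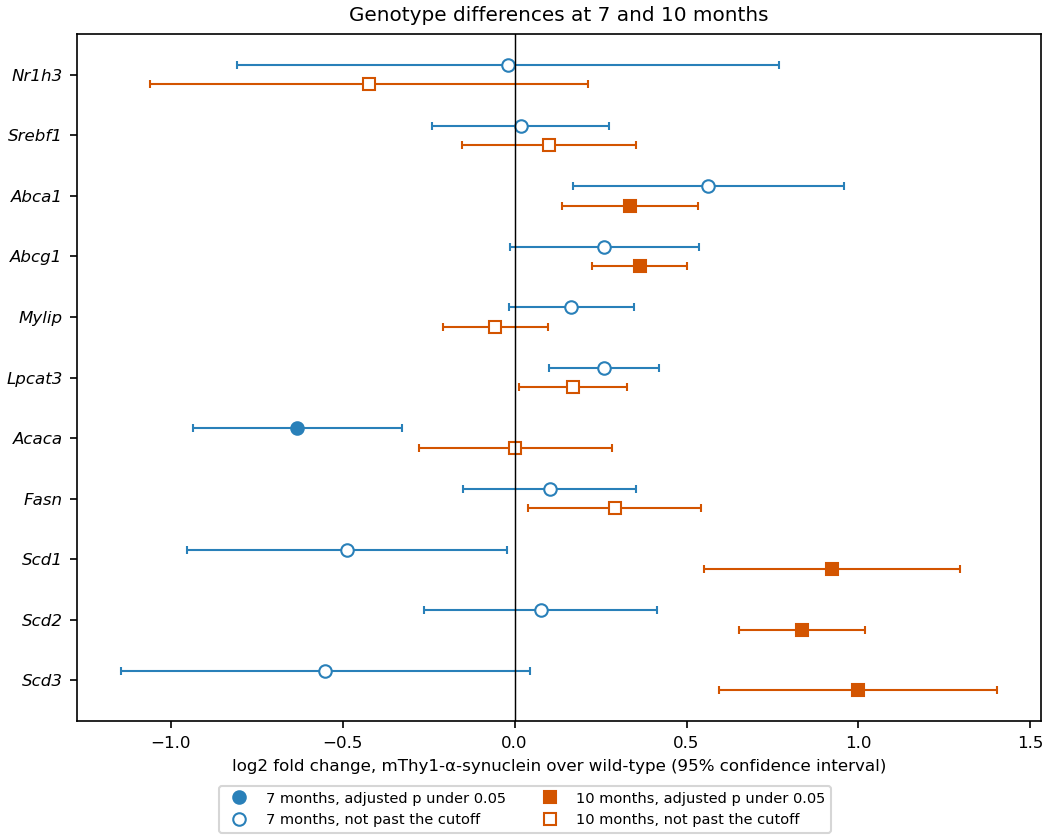
log2 fold change of each gene, mThy1-Asyn over wild-type, with its 95% confidence interval on the x axis, at 7 months (blue circles) and 10 months (orange squares), for the 10 genes and Scd3. Filled symbols passed the adjusted cutoff. The 3 desaturases moved from at or below 0.08 at 7 months to 0.84 or more at 10 months, while Abca1 lay above 0 at both ages.

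The regulators did not pass the test at either age. Nr1h3, on chromosome 2 from 91184061 to 91202834, had 40.2 ± 12.2 normalized counts (SD, n = 6) in mThy1-Asyn and 41.7 ± 18.4 (n = 4) in wild-type mice at 7 months, and 43.3 ± 12.8 and 57.9 ± 15.9 (n = 5 each) at 10 months. These values rest on 18 to 75 reads per mouse, and the groups overlapped at both ages. The 95% interval of its log2 fold change ran from -0.81 to 0.77 at 7 months and from -1.06 to 0.21 at 10 months (adjusted p = 0.985 and 0.422), which leaves room for a sizeable difference in either direction at 7 months. Srebf1, on chromosome 11 from 60199089 to 60222581, encodes SREBP-1, which turns on the genes of fatty acid synthesis. Its group means ranged from 875 ± 145 (wild-type, 10 months) to 996 ± 140 (mThy1-Asyn, 7 months), and its log2 fold changes were 0.02 (95% interval -0.24 to 0.28, adjusted p = 0.953) and 0.10 (-0.15 to 0.35, adjusted p = 0.660). Its sign at both ages depended on the scaling or on single mice. At Srebf1, 109 exonic bases are shared with Rai1 on the opposite strand.

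Of the 14 partners and co-regulators of LXR, only Rxrg, a retinoid X receptor, passed the test. At 7 months Rxrg had 179, 101.1, 150, 72.2, 27.4 and 137 normalized counts in mThy1-Asyn mice 1 to 6 and 24.3, 30.2, 29.5 and 25.5 in wild-type mice 1 to 4. All but 1 of the mThy1-Asyn mice lay above every wild-type mouse (log2 fold change 1.77 ± 0.43 SE, adjusted p = 0.0281). At 10 months its values of 44.2 to 138 overlapped the wild-type values of 30.2 to 76.6 (log2 fold change 0.68, adjusted p = 0.253), and the interaction was -1.08 (adjusted p = 0.278). Of the 6 genes that process SREBP in the Golgi and endoplasmic reticulum, Mbtps2, which encodes the site-2 protease, rose at 10 months, from 2657 to 3236 in the group means (log2 fold change 0.29 ± 0.079 SE, adjusted p = 0.0419). At 7 months it had a log2 fold change of 0.24 (adjusted p = 0.113).

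Both cholesterol exporters were higher in mThy1-Asyn mice at 10 months. Abcg1, on chromosome 17 from 31057675 to 31117988, encodes the transporter that passes cholesterol to high-density lipoprotein. At 10 months it had 9445, 9274, 9776, 9156 and 10756 normalized counts in mThy1-Asyn mice 1 to 5 and 7747, 7805, 7750.3, 7402 and 6877 in wild-type mice 1 to 5. The lowest mThy1-Asyn mouse lay above the highest wild-type mouse, and the log2 fold change was 0.36 (standard error 0.065, adjusted p = 0.00583), a 1.29-fold difference. Abca1, on chromosome 4 from 53030787 to 53159895, encodes the transporter that loads cholesterol and phospholipid onto apolipoproteins. It had 27618, 24698, 27203, 21169 and 27426 normalized counts in mThy1-Asyn mice and 22180.0, 21116, 18184, 22527 and 17557 in wild-type mice. Of the mThy1-Asyn mice only number 4 lay within the wild-type range, and the log2 fold change was 0.34 (standard error 0.093, adjusted p = 0.0415), a 1.26-fold difference. This call is near the cutoff. Among other settings, it was lost without any of mThy1-Asyn mice 1, 2, 3 and 5 or wild-type mice 2, 3 and 5 (adjusted p from 0.0627 to 0.0980), in the fit of all 20 mice (0.170) and with no filter on low values (0.0535).

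At 7 months neither exporter passed the test, although Abca1 differed more on the log2 scale. Abca1 had a lowest, median and highest value of 24181, 30318 and 43484 in the 6 mThy1-Asyn mice, and 21394, 22453, 16859 and 28215 in the 4 wild-type mice. In 5 of 6 mThy1-Asyn mice it exceeded every wild-type mouse (log2 fold change 0.56 ± 0.18 SE, adjusted p = 0.100). On the recovered reads DESeq2 called this difference (adjusted p = 0.00568) and edgeR did not (adjusted p = 0.0916). Abcg1 had 9034, 10663 and 14949 as lowest, median and highest in mThy1-Asyn mice against 9071, 9063, 8043 and 10357 in wild-type mice. Here 4 of 6 mThy1-Asyn mice exceeded every wild-type mouse (log2 fold change 0.26 ± 0.13 SE, adjusted p = 0.257). The interaction was -0.23 for Abca1 (95% interval -0.66 to 0.20, adjusted p = 0.556) and 0.10 for Abcg1 (-0.20 to 0.40, adjusted p = 0.726), so a change of the genotype difference between ages was not shown for either.

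The calls on both exporters at 10 months also turned on the scaling. At that age the summed microglia markers ranged from 1728520 to 1958900 in mThy1-Asyn mice and from 1603030 to 1786400 in wild-type mice, and 3 of the 9 markers (Cx3cr1, Itgam and Sall1) were higher by the test. Scaling each mouse to these markers, an alternative chosen after the data were seen, moved the median of all genes at 10 months by -0.131 on the log2 scale. The log2 fold change was then 0.24 for Abcg1 (adjusted p = 0.0568) and 0.21 for Abca1 (adjusted p = 0.202), so neither passed.

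Abca1 and Abcg1 also varied together from mouse to mouse. With log2 values centred on each group mean and scaled to the same variance over 20 mice, the root mean square difference between them was 0.564, where unrelated genes give 1.41. Of the 14030 genes compared, Abca1 was the gene most like Abcg1, ahead of Slc11a2 (0.568) and Vps33b (0.572). The genes most like Abca1 were Ttc37 (0.520), Stam2 (0.521) and Zfyve26 (0.522), with Abcg1 ranked 6. The points share their library and its size factor, and mThy1-Asyn mouse 3 of 7 months was highest for both. That mouse had the lowest neutrophil marker sum of its group, 42272, and mouse 5, lowest for both exporters, had the highest, 426941. Wild-type mouse 4 of that age had its group's lowest neutrophil sum, 72643, and highest Abca1 and Abcg1. At 10 months mThy1-Asyn mouse 5 had its group's highest neutrophil sum, 189748, and highest Abcg1. The part of these cells in the likeness was not tested. Among the pairs of the 10 genes, the next most alike were Abca1 and Fasn (0.868) and Abcg1 and Scd2 (0.905). Many genes outside the 10 were closer. By likeness among all genes compared, Abca1 ranked 224 for Fasn and Abcg1 ranked 98 for Scd2.

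**Figure D5:**
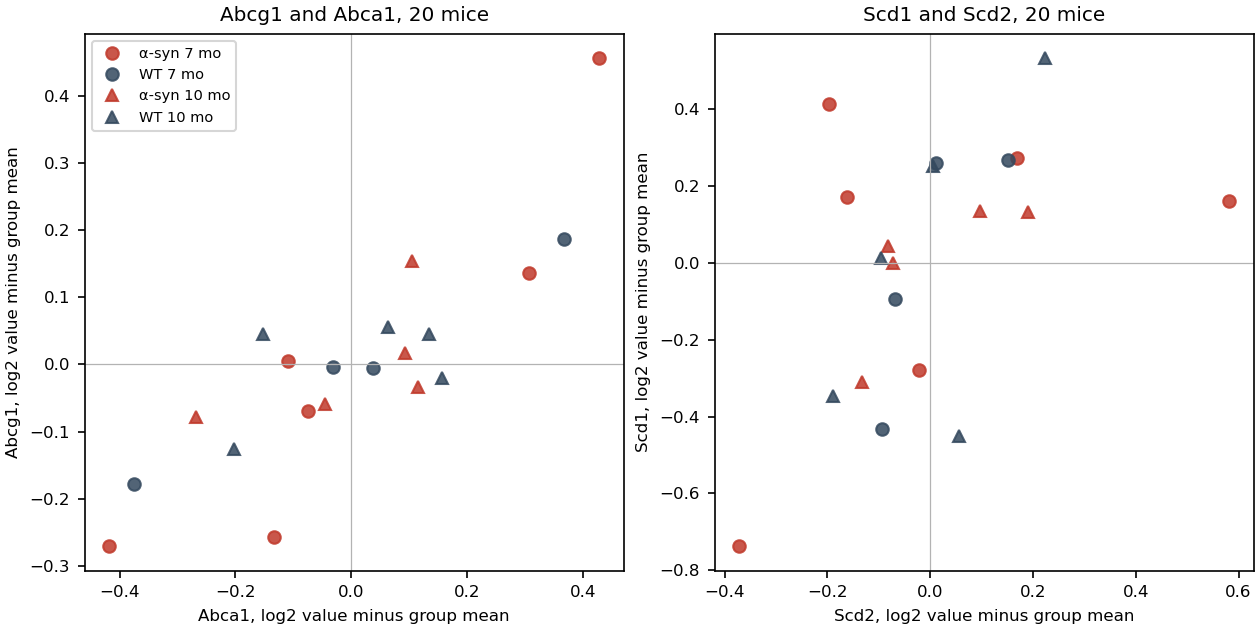
log2 normalized count minus the group mean of each of 20 mice, for Abcg1 against Abca1 (left) and Scd1 against Scd2 (right). The root mean square difference after scaling is 0.564 for the exporters and 0.996 for the desaturases, and the points of the exporters lie closer to a line.

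Other targets of the receptor were tested alongside. Of 17 such genes 12 were high enough to test, and Mertk, a receptor for the uptake of dying cells, was the only one to pass at 7 months. It had 21759, 24915 and 27989 as lowest, median and highest normalized count in mThy1-Asyn mice and 17775, 20031, 18375 and 21218 in wild-type mice, with no overlap (log2 fold change 0.35 ± 0.083 SE, adjusted p = 0.0220). Apoe, the apolipoprotein that accepts cholesterol from ABCA1 in the brain, had 102346 to 214140 in mThy1-Asyn and 88414 to 107109 in wild-type mice at 7 months (log2 fold change 0.61, adjusted p = 0.0523). At 10 months it had 112864 to 148487 and 120884 to 153816 (log2 fold change -0.08, adjusted p = 0.639). Apoe passed neither test within an age, and its interaction was -0.69 (standard error 0.19, adjusted p = 0.0297). None of the 12 passed at 10 months. None of 6 oxysterol and desmosterol genes tested passed at either age.

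Mylip and Lpcat3 did not pass at either age. Mylip, on chromosome 13 from 45389742 to 45412022, had 15588 ± 1625 (n = 6) and 13870.2 ± 1016 (n = 4) normalized counts at 7 months and 13320.2 ± 670.3 and 13880.3 ± 1295 (n = 5 each) at 10 months. The log2 fold change was 0.16 (95% interval -0.02 to 0.35, adjusted p = 0.284) and -0.06 (-0.21 to 0.10, adjusted p = 0.684).

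Lpcat3, on chromosome 6 from 124663027 to 124704418, puts polyunsaturated chains into phospholipids. At 7 months it had 5027, 6108 and 6341 as lowest, median and highest in mThy1-Asyn mice and 4806, 4796, 5161 and 4953 in wild-type mice, and all but 1 of the mThy1-Asyn mice lay above the wild-type range (log2 fold change 0.26 ± 0.075 SE, adjusted p = 0.0614). It passed with DESeq2 (adjusted p = 0.0213) and edgeR (adjusted p = 0.0483) on the recovered reads. At 10 months it had 4792, 4508, 5011, 5435 and 5901 against 4398, 4437, 4575, 4660 and 4641, again with 1 mThy1-Asyn mouse within the wild-type range (log2 fold change 0.17 ± 0.073 SE, adjusted p = 0.175). Of its exonic bases, 334 (10.2%) are shared with Emg1 on the opposite strand, and whether counting used strand was not stated, so reads of these genes may not be told apart there. Among 12 other acyltransferases and acyl-CoA synthetases, Acsl4, which activates polyunsaturated fatty acids, rose at 10 months, from 7918 to 9392 in wild-type mice to 10018 to 13395 in mThy1-Asyn mice (log2 fold change 0.48 ± 0.079 SE, adjusted p = 0.00413). Its interaction was 0.30 (adjusted p = 0.138). At 7 months Lpcat1 rose (log2 fold change 0.34 ± 0.093 SE, adjusted p = 0.0479) and Acsl6 fell (log2 fold change -1.33 ± 0.35 SE, adjusted p = 0.0402). Acsl6 stood at 15.8 to 41.6 in mThy1-Asyn and 60.2 to 74.4 in wild-type mice, a low level in samples whose neuron, oligodendrocyte and endothelial marker sums differed in the same direction. At 10 months Acsl6 had a log2 fold change of 1.09 (adjusted p = 0.277).

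Acaca, on chromosome 11 from 84129672 to 84401651, encodes acetyl-CoA carboxylase 1, which commits acetyl-CoA to fatty acid synthesis. At 7 months its lowest, median and highest values were 752, 948 and 1284 in mThy1-Asyn mice, and wild-type mice 1 to 4 had 1573, 1249.9, 1398 and 1705. Of the mThy1-Asyn mice 5 lay below every wild-type mouse and number 4 lay within their range (log2 fold change -0.63 ± 0.14 SE, adjusted p = 0.0197), a level 0.646 times that of wild-type mice. The call was lost without wild-type mouse 1, 3 or 4 (adjusted p = 0.0815, 0.0512 and 0.0600). At 10 months Acaca had 1190, 1191, 1068, 1080 and 1105 in mThy1-Asyn mice and 1533, 1296, 951, 1102 and 859 in wild-type mice. Every mThy1-Asyn mouse lay within the wild-type range and the log2 fold change was 0.00 (95% interval -0.28 to 0.28, adjusted p = 0.993). The interaction of 0.63 did not pass (standard error 0.21, adjusted p = 0.0655).

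Fasn, on chromosome 11 from 120805846 to 120824547, encodes the synthase that builds palmitate. It had 1187 ± 135 (n = 6) and 1114 ± 215 (n = 4) normalized counts at 7 months and 1063 ± 116 and 874 ± 147 (n = 5 each) at 10 months. The groups overlapped at both ages, and the log2 fold change was 0.10 (95% interval -0.15 to 0.35, adjusted p = 0.659) and 0.29 (0.04 to 0.54, adjusted p = 0.149). Of 21 other genes of fatty acid supply and elongation, 19 were tested at 7 months and 20 at 10 months. Ptplad2 and Ptplb, members of the family of 3-hydroxyacyl-CoA dehydratases that act in chain elongation, were the only ones to pass, both lower. Ptplad2 fell from 1673 to 1046 in the group means at 7 months (log2 fold change -0.65 ± 0.16 SE, adjusted p = 0.0307) and from 1517 to 938 at 10 months (log2 fold change -0.66 ± 0.15 SE, adjusted p = 0.0225). Ptplb fell at 10 months (log2 fold change -0.31 ± 0.074 SE, adjusted p = 0.0235).

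The desaturases differed most between genotypes at 10 months. Scd2, on chromosome 19 from 44293674 to 44306864, had 13985, 13406, 13897, 15723 and 16765 normalized counts in mThy1-Asyn mice 1 to 5 and 7225, 7708, 9628, 8566 and 8275 in wild-type mice 1 to 5. The lowest mThy1-Asyn mouse was well above the highest wild-type mouse. The log2 fold change was 0.84 (standard error 0.086, adjusted p = 0.000126), a 1.78-fold difference with a 95% interval of 1.57 to 2.02. Scd1, on chromosome 19 from 44394455 to 44407879, was expressed at a far lower level per kilobase, and had 517, 417, 533, 568 and 567 normalized counts in mThy1-Asyn mice and 214, 274, 394, 199 and 324 in wild-type mice. These groups were also apart, and the log2 fold change was 0.92 (standard error 0.17, adjusted p = 0.00781), a 1.90-fold difference with a 95% interval of 1.47 to 2.45. Both calls held under each of the 20 alternatives run at this age, with a log2 fold change from 0.71 to 0.89 for Scd2 and from 0.80 to 1.06 for Scd1.

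At 7 months neither desaturase passed the test, and they lay on different sides of 0. Scd2 had 10066, 12243 and 19498 as lowest, median and highest in the 6 mThy1-Asyn mice and 12464, 11783, 11577 and 13725 in wild-type mice. The mThy1-Asyn mice spread around the narrower wild-type range, with mouse 3 far above it (log2 fold change 0.08, 95% interval -0.26 to 0.41, adjusted p = 0.818). Scd1 had 162, 305 and 362 against 457, 357, 282 and 459, so that 2 of 6 mThy1-Asyn mice lay under every wild-type mouse (log2 fold change -0.49, 95% interval -0.95 to -0.02, adjusted p = 0.213). The interaction was 1.41 for Scd1 (standard error 0.29, adjusted p = 0.00678) and 0.76 for Scd2 (standard error 0.18, adjusted p = 0.0157). Between the ages the wild-type means of Scd2 were 12387 and 8280.4 and those of mThy1-Asyn mice 13342 and 14755. For Scd1 the wild-type means were 389 and 281 and the mThy1-Asyn means 281 and 520.4. Wild-type mice were lower and mThy1-Asyn mice higher at 10 than at 7 months for both genes, a comparison of separately normalized ages that carries no test.

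Markers of other cell types were read beside the desaturases. Oligodendrocytes make large amounts of membrane lipid and express Scd2, and their summed markers at 10 months were 7589 to 10760.2 in mThy1-Asyn mice and 8785 to 15130.2 in wild-type mice, overlapping and not higher in mThy1-Asyn mice. Astrocyte markers lay in the direction of Scd1 and Scd2. At 10 months 8 of 8 had a log2 fold change above 0, with a median of 0.58, and 1 passed the test, while their sums of 10166 to 11298 in mThy1-Asyn mice and 8966 to 10946 in wild-type mice overlapped. In the interaction 4 of the 8 astrocyte markers and 5 of the 10 neuron markers passed, all upward as Scd1, Scd2 and Scd3 did, with a median log2 value of 1.499 and 2.22. No oligodendrocyte or endothelial marker passed in the interaction. Of these, 7 of 8 and 6 of 6 lay above 0, with a median of 0.30 and 0.65. Neutrophil, monocyte, lymphocyte and border macrophage sums were lower in mThy1-Asyn mice at 10 months, as given above for all of these but monocytes. The 5 monocyte markers ranged from 9496 to 19380 in mThy1-Asyn mice and from 19006 to 40405 in wild-type mice. At 7 months the oligodendrocyte, neuron and endothelial sums were lower in mThy1-Asyn mice, as Acaca was, while Scd2 did not pass. The part of these cells in the desaturase and Acaca results was not tested.

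Scd1 and Scd2 lie in a cluster of 4 desaturase genes on chromosome 19, with Scd3 from 44203269 to 44244016 and Scd4 from 44333092 to 44346743. Scd3 also rose at 10 months, with 231, 190, 233, 236 and 252 normalized counts in mThy1-Asyn mice and 75.2, 156, 125, 112 and 113 in wild-type mice. The groups did not overlap (log2 fold change 1.00 ± 0.19 SE, adjusted p = 0.00803). At 7 months its log2 fold change was -0.55 (adjusted p = 0.272) and the interaction was 1.55 (standard error 0.34, adjusted p = 0.00890). Of the stretches of 150 bases in Scd1 transcripts 0.759% were identical in Scd3, and none was shared between Scd2 and either of them. Of the stretches of 50 bases in Scd2 transcripts, 2.68% were identical in Scd1 and 2.52% in Scd3. In mThy1-Asyn mice at 10 months the mean of Scd2 was 14755, beside 520 for Scd1 and 228 for Scd3. How reads that fit several genes were counted was not stated. Scd1 and Scd3 therefore remain uncertain where they resemble each other or Scd2. Scd4 did not pass (log2 fold change 0.52 at 10 months, adjusted p = 0.382). Of 23 tested neighbours within 1000000 bases of Scd1, 5 passed at 10 months and all were higher. They were Got1, Cpn1, Scd3, Scd2 and Sema4g (listed after their values were seen). Scd2 and Scd3 are the genes already described, so setting this share against the 3.88% above would count them again. None of 24 passed at 7 months. The median log2 fold change of these neighbours at 10 months was 0.05. Of the 7 other desaturases, which include Fads1 and Fads2, Scd3 was the only one to pass at either age.

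The genes whose mouse-to-mouse pattern was most like Scd2 were 2810408A11Rik (0.675), Sgk1 (0.679) and Ahcyl1 (0.698), and Scd1 was nearest to Ska3 (0.569), Net1 (0.569) and Sema7a (0.612), on the same root mean square scale as above. For Acaca they were Zfyve20 (0.585), Ttpal (0.593) and Ankfy1 (0.642). Scd1 and Scd2 themselves differed by 0.996, beside 0.564 for the exporters, and Scd2 ranked 618 by likeness to Scd1 among all genes compared.

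Where the lipid goes next was covered by 11 genes of triglyceride and cholesteryl ester storage. At 10 months 3 of them fell in mThy1-Asyn mice and none rose, where 3.79% of all genes tested were lower. Dgat2, which makes triglyceride from diglyceride, had 134, 108, 141, 129 and 186 normalized counts in mThy1-Asyn mice and 405, 391, 368, 206 and 317 in wild-type mice, with no overlap (log2 fold change -1.25 ± 0.20 SE, adjusted p = 0.00332). Dgat1, its counterpart in the endoplasmic reticulum, fell from 1013 to 666 in the group means (log2 fold change -0.63 ± 0.16 SE, adjusted p = 0.0303). Plin2, which coats lipid droplets, fell from 2323 to 1617 (log2 fold change -0.52 ± 0.093 SE, adjusted p = 0.00603). These moved opposite to the desaturases at the same age. Neutrophil, monocyte, lymphocyte and border macrophage markers were also lower at 10 months, with median log2 fold changes of -1.04, -1.29, -1.71 and -0.49. The part of these cells in the results on storage genes was not tested. At 7 months Soat1, which esterifies cholesterol, rose from 6254 to 8745 (log2 fold change 0.50 ± 0.095 SE, adjusted p = 0.00680), and all but 1 of 6 mThy1-Asyn mice lay above the wild-type mice. At 10 months Soat1 had a log2 fold change of -0.30 (adjusted p = 0.118), and its interaction was -0.80 (standard error 0.15, adjusted p = 0.00437). Of 18 genes of cholesterol synthesis tested, Pmvk fell at 7 months (log2 fold change -0.54, adjusted p = 0.0479) and Ebp fell at 10 months (log2 fold change -0.27, adjusted p = 0.0414), so that 1 of 18 passed at each age, a share near that of all genes.

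The calls on these pathway genes were not equally firm. Acsl4, Dgat2, Plin2 and Scd3 passed at 10 months whichever mouse was left out, as did Soat1 at 7 months, which lost its call under the microglia marker scaling (adjusted p = 0.0668). Mertk lost its call at 7 months without wild-type mouse 1 or 3 and under the microglia marker scaling (highest adjusted p = 0.122). The remaining calls were near the cutoff. Leaving out 1 of 10 mice ended the call in 8 cases for Rxrg (adjusted p up to 0.0993), 8 for Acsl6, 8 for Pmvk, 7 for Lpcat1 and 6 for Ptplad2 at 7 months, and in 9 cases for Ebp, 8 for Mbtps2, 7 for Dgat1, 5 for Ptplb and 3 for Ptplad2 at 10 months.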

How the data were processed

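RNA was sequenced from microglia of 20 mice in 4 groups of genotype and age. Per the labels and methods, the authors trimmed reads with Trim Galore 0.6.7, mapped them to mm10 with HISAT2 2.2.1, counted them per gene with featureCounts and normalized them with DESeq2 1.44.0. The annotation, the strand setting and the handling of reads with several positions are not given in the sources used here. The deposited signal values are counts that the authors divided by a size factor per mouse, separately for each age, called normalized counts here. In each of the 20 mice 100% of the low values (up to 2000 reads) lay within 0.01 of a whole number of reads. Tables of single mice and of all mice held the same values. The chi-square between any 2 mice of a group was at least 24.7 per gene, so no library was a copy of another. On average over genes, counting error was small beside the spread between mice. It need not be small for genes with few reads, such as Nr1h3, Rxrg and Acsl6.

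The planned test depended on the unit. As the values were normalized, genes were compared with limma 3.58.1 (R 4.3.3) on log2(value + 1), with trend and robust estimation, for genes of at least 10 in at least 4 mice (7 months) or 5 mice (10 months), and the union of both for the interaction. Adding 1 understates the change of low genes. The model was tested on simulated data. Alternatives were edgeR 4.0.16 and DESeq2 1.42.0 on recovered reads, TMM scaling, pseudocounts of 0.5 and 5, other filters, a replicate block, a fit of all 20 mice, each mouse left out, and, added after seeing the data, scaling to the microglia markers. The labels name each mouse as a sample of its own.

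The genes, lists and tests were chosen with earlier results of these data known. Named are the 10 genes, at most 4 called genes per pathway list and comparison, leading markers, and the 3 genes nearest to each called gene. Results for some genes named by this rule are not reported here. Members of Hacd1 to Hacd4 were found under the older symbols Ptpla, Ptplb, Ptplad1 and Ptplad2. Gene positions and exon lengths are from GENCODE vM21 (GRCm38, the same assembly as mm10). Plots were made with Python 3.11.15 and matplotlib 3.10.9.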

Additional observations from a re-analysis of the deposited data

Results flagged for a closer look

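The log2 fold change between genotypes was more positive at 10 months than at 7 months, by a test of the interaction in limma with p adjusted over 14030 genes, for Scd1 (1.41, adjusted p = 0.00678), Scd2 (0.76, adjusted p = 0.0157), Scd3 (1.55, adjusted p = 0.00890), Acsl6 (2.42, adjusted p = 0.0367) and Lss (0.74, adjusted p = 0.0335). It was more negative at 10 months for Soat1 (-0.80, adjusted p = 0.00437), Plin2 (-0.64, adjusted p = 0.0141), Lipa (-0.44, adjusted p = 0.0150), Apoe (-0.69, adjusted p = 0.0297), Ptplb (-0.46, adjusted p = 0.0314) and Ebp (-0.42, adjusted p = 0.0343). Lipa, the lysosomal acid lipase, had group means of 10181 and 8470.2 normalized counts at 7 months, with every mThy1-Asyn mouse above every wild-type mouse, and 9114 and 10325 at 10 months. It passed at neither age (adjusted p = 0.0948 and 0.100). For all of these genes but Scd2 the log2 fold change had opposite signs at 7 and 10 months, without a pass at both ages for any. The log2 fold change of Acsl6 was -1.33 at 7 months (adjusted p = 0.0402) and 1.09 at 10 months (adjusted p = 0.277), on under 75 normalized counts in every mouse. That of Lss was -0.38 (adjusted p = 0.188) and 0.36 (adjusted p = 0.141). Several of these calls rested on single mice. Leaving out 1 of 20 mice ended the interaction call in 13 cases for Acsl6, 10 for Ebp, 9 for Lss, 6 for Ptplb and 4 for Apoe (highest adjusted p of 0.0801, for Ebp without wild-type mouse 4 of 7 months), and in none for Scd1, Scd2, Scd3, Soat1, Plin2 and Lipa.

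The highest of the 4 wild-type mice at 7 months for Fasn, at 1433 normalized counts, stood apart from the other 3 mice at 960.1 to 1034. This was 1 of 40 gene and group combinations checked, and chance gives about 1 in 20. The mouse was wild-type mouse 4, which also had the lowest neutrophil and monocyte marker sums of its group, 72643 and 9572. The part of these cells in its Fasn value was not tested.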

How the results depend on the processing

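At 10 months Scd1 and Scd2 passed in all alternatives run and Abcg1 in all but the microglia marker scaling. That scaling left 2 of the 10 genes called at 10 months in place of 4, and Abca1 and Abcg1 were lost. Leaving out single mice gave 3 to 4 genes called at 10 months, 0 to 2 at 7 months (0 without wild-type mouse 1, 3 or 4) and 2 to 3 in the interaction. At 7 months DESeq2 called 3 (Abca1, Acaca and Lpcat3), edgeR 2 (Acaca and Lpcat3) and the fit of all 20 mice 3, in place of 1.

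Over all genes, DESeq2 called 1158 at 7 months and 1694 at 10 months, in place of 684 and 1045. The microglia marker scaling called 1730.0 at 10 months, of which 206 were higher in place of 529. It moved the median of all genes by -0.109 at 7 months and -0.131 at 10 months. Leaving out single mice gave 280 (without wild-type mouse 1) to 860 at 7 months, 497 (without wild-type mouse 2) to 1235 at 10 months and 623 to 1100 in the interaction.

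No pairing of the mice by replicate number was seen in their values, though correlations of deviations cannot exclude one. Deviations of mice with the same number correlated at -0.134 to 0.0324 over 4 pairs at 7 months and at -0.0505 to 0.0995 over 5 pairs at 10 months, and 0 mice were closest to their own number. With the replicate number as a block, 414 genes were called at 7 months and 481 in the interaction, where 926 were called without it. Of the 10 genes, 1, 3 and 2 passed at 7 months, at 10 months and in the interaction, with Abca1 10 months at an adjusted p of 0.0754, Scd2 interaction at 0.0523 and Acaca interaction at 0.0454. Among the other genes named, the block ended the calls on Mertk, Acsl6 and Pmvk at 7 months, on Mbtps2, Ptplb and Ebp at 10 months, and on the interactions of Lss (0.0738), Ptplb (0.0957) and Ebp.

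The sign turned only for small differences that passed no test. Under the microglia marker scaling the log2 fold change was -0.0342 for Scd2 7 months, -0.0917 for Srebf1 7 months, -0.0078 for Fasn 7 months, -0.0284 for Srebf1 10 months and -0.13 for Acaca 10 months. For Acaca 10 months it was -0.0246 with DESeq2 and -0.0201 with edgeR, each of which gave no call. Leaving out single mice gave -0.0940 to 0.115 for Acaca 10 months, -0.0408 (without mThy1-Asyn mouse 3) to 0.15 for Scd2 7 months, -0.0670 to 0.0833 for Srebf1 7 months, and -0.2273 to 0.2388 for Nr1h3 7 months, which was measured on at most 75 reads. The cause of these changes was not tested.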
